A study of Zea mays with 6 samples.

Results

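The transcripts described here are 60 maize transcript models without an informative protein name that were present in nucellus and in pollinated embryo sacs and low in unpollinated embryo sacs. They were chosen by measured values. A model was taken when its best database hit was absent, hypothetical, uncharacterized, unknown or an unnamed sorghum protein, when its RPKM (reads per kilobase of model, scaled to the total of unique reads) was at least 10 in both nucellus and both pollinated libraries, and when its mean RPKM in unpollinated embryo sac was at most 1/3 of the mean in each of the other tissues. The rule took 60 of the 42007 models with reads in any library, and 60 of the 31457 with an uninformative description. These came from 60 different genes, all 60 passed the low-count filter of the test, and no upper limit on their number was reached. Both contrasts with unpollinated embryo sac were used by the rule, so values there are a description and nothing is read from them. The contrast of pollinated embryo sac with nucellus was given no direction by the rule, although both tissues had to reach the minimum level.

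The embryo sac is the female gametophyte of a flowering plant and holds the egg cell, the synergids that attract the pollen tube, the central cell and the antipodal cells. It lies inside the nucellus, the maternal sporophytic tissue of the ovule, which the maize pollen tube has to cross before it enters a synergid. Proteins made in these tissues at that time include cell wall enzymes, small secreted proteins, lipid-transfer proteins, receptor kinases and transcription factors, and many plant transcripts of these kinds still carry no gene name.

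The study profiled poly(A) RNA of the maize inbred line Q319 by RNA-seq, as part of a search for genes of the interaction between embryo sac and pollen tube. There were 3 groups with 2 libraries each: embryo sacs with no pollination named in the labels, nucellus with none named, and embryo sacs collected 14 to 16 h after pollination. All were freed from slices of ovules with enzymes, so every tissue went through that treatment. The labels call the libraries of a tissue biological replicates, without saying how many plants or sacs each holds or giving a pollen parent. These are bulk samples, in which fewer cells of a type and less RNA per cell cannot be told apart.

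The libraries held 2.5e+06 to 3.3e+06 unique reads, and the pollinated libraries were the shallowest. Fewer models drew reads in the pollinated libraries (26734 and 26859) than in nucellus (32780 and 33296). The scaling factors of the trimmed mean of M-values (TMM), which centre each library on the bulk of its models, were 1.46 and 1.47 in the nucellus libraries against 0.771 and 0.785 in the pollinated ones, so scaling bears on every change given between these tissues. Levels of the models taken as markers of embryo sac and of nucellus followed the labels. The marker terms were chosen with earlier results of these data known, so this is no independent check of the labels. All nucellus markers found were models of MADS16 or bearded-ear1. The 8 embryo sac marker models summed to 2386 and 2693 RPKM in unpollinated sacs, 1295 and 1313 in pollinated sacs, and 9.63 and 14.2 in nucellus. The 3 nucellus marker models summed to 188 and 198 RPKM in nucellus, 20.8 and 21.6 in unpollinated sacs and 24.6 and 29.6 in pollinated sacs. The main model of bearded-ear1, a MADS-box gene, had 46.9 and 61.2 RPKM in nucellus, 0 in both unpollinated libraries, and 0.537 and 0 in the pollinated ones. Its other model was near the floor, with 1.31 and 0.737 RPKM in nucellus. MADS16 had 139 and 136 RPKM in nucellus. Its 20.8 and 21.6 RPKM in unpollinated and 24.1 and 29.6 in pollinated sacs made up nearly all of the sums there. Of 56 models with a pollen-related description, the summed level was 111 and 116 RPKM in unpollinated sacs, 194 and 226 in nucellus and 185 and 201 in pollinated sacs, with 16 to 21 models at 1 RPKM or more in a library. This sum did not set pollinated sacs apart from nucellus. The set was found by words such as pollen, profilin and anther in descriptions, and it had reads in every tissue. It is therefore not specific to pollen and cannot show whether pollen tube RNA was present. Of the 15 pollen-related models tested, 6 were called higher and 5 lower in pollinated sac than in nucellus on TMM scaling. Among all tested models 27.3% were called higher and 27.9% lower. The 5 models with an integument, epidermis or vascular description summed to 56.2 and 66.2, 103 and 139, and 98.0 and 110 RPKM in the same order. The part of these tissues in the levels of the 60 transcripts was not tested.

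The 60 transcripts had a median of 4.66 and 4.43 RPKM in the unpollinated libraries, against 32.2 and 37.3 in the nucellus libraries and 25.6 and 28.7 in the pollinated ones. The unpollinated value is low because the rule asked for it. Mean levels ran from 11.5 to 823 RPKM in nucellus, from 11.0 to 233 in pollinated sacs and from 0.648 to 41.4 in unpollinated sacs. Together they held 0.620% and 0.723% of nucellus reads, 0.351% and 0.386% of pollinated reads and 0.0690% and 0.0657% of unpollinated reads. Each rested on at least 32 reads in a nucellus library and at least 20 in a pollinated one, with medians of 171 and 189 and of 121 and 144 reads. In unpollinated sacs the medians were 27 and 21.5 reads and the lowest count was 2, so the levels there are the least precise.

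**Figure D1:**
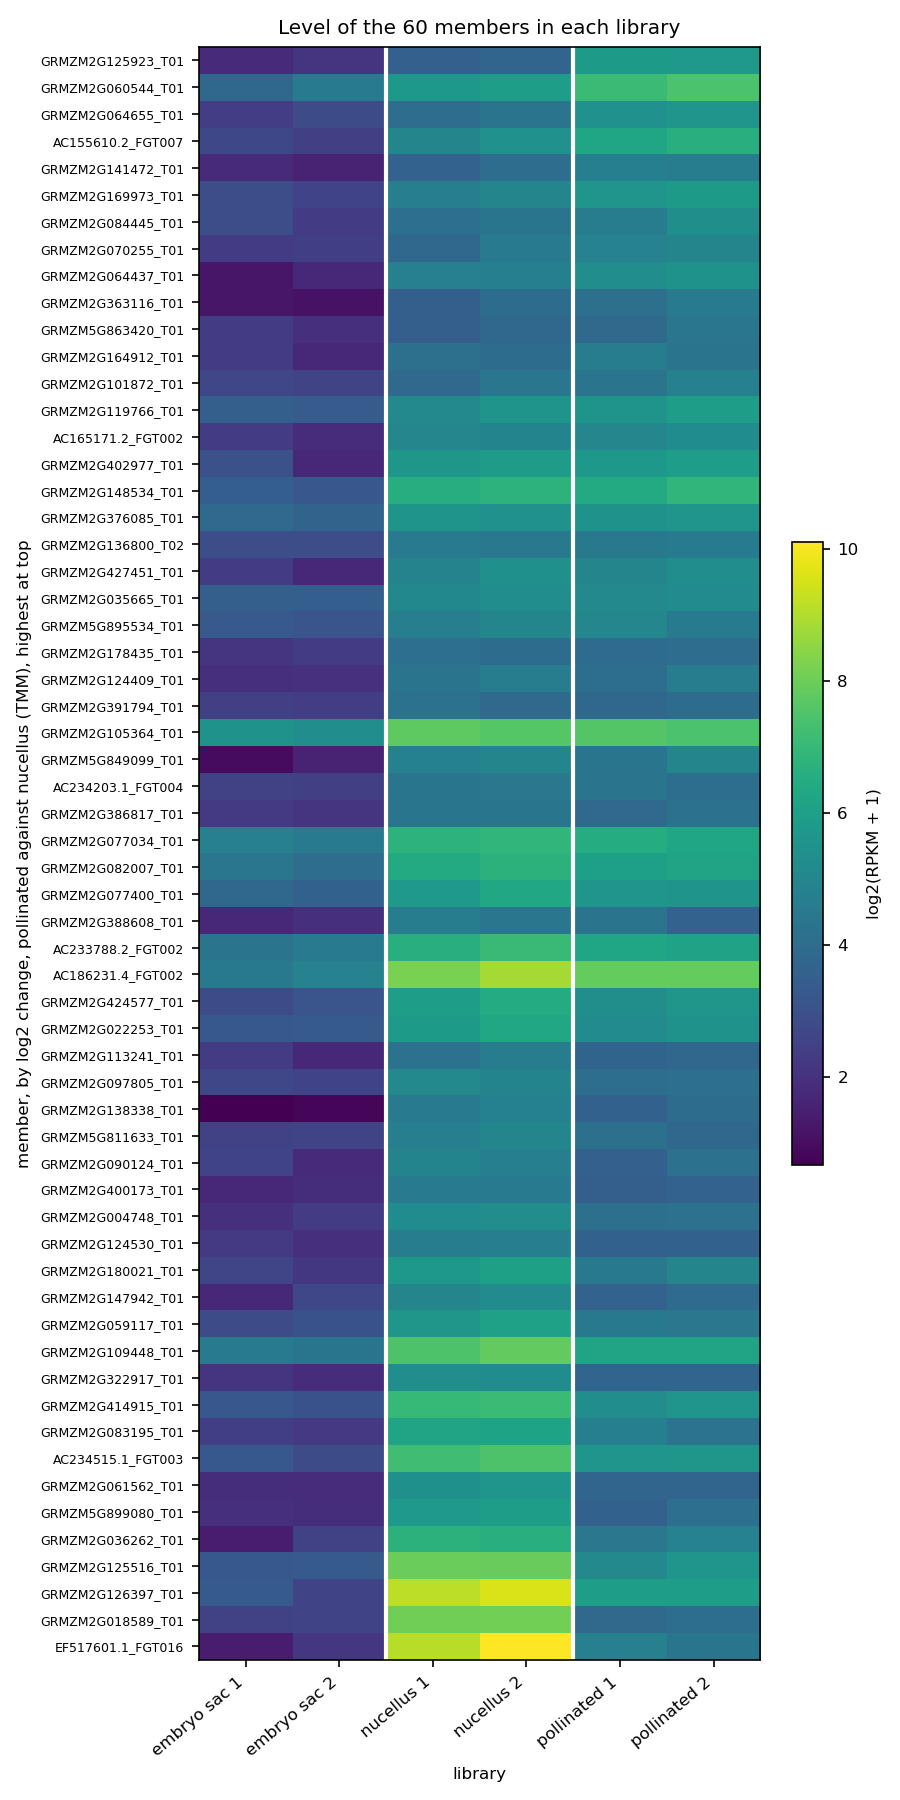
Level of each of the 60 transcripts in each of the 6 libraries as log2(RPKM + 1), with transcripts ordered by their change between pollinated embryo sac and nucellus. The unpollinated columns are darkest by the rule. The transcript at the foot, EF517601.1_FGT016, has the brightest cell, in the nucellus library numbered 2 (1103 RPKM). In the nucellus library numbered 1 it has 543 RPKM, below the 577 of GRMZM2G126397_T01.

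Libraries of a tissue were close for most of the transcripts. The higher library was a median of 1.18 times the lower in nucellus and in pollinated sac and 1.23 times in unpollinated sac. Differences over 1.5-fold were found for 3 transcripts in nucellus, 5 in pollinated sac and 14 in unpollinated sac. Many of the transcripts leaned the same way: the nucellus library numbered 2 was the higher one for 45 of 60 (75%, against 49.5% of all tested models), and the pollinated library numbered 2 was the higher one for 42 of 60 (70%, against 45.8%). Transcripts of a library are not independent, and no test was made of this.

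A few models stood close to the limits of the rule. Just inside the limit of 1/3 stood GRMZM5G811633_T01 and GRMZM2G059117_T01, both with an unpollinated level of 0.328 of the lower of the other tissues, and GRMZM2G018589_T01 at 0.322. Just outside stood GRMZM2G099295_T01 at 0.335, an abundant model with 605 and 730 RPKM in nucellus and 662 and 649 in pollinated sac, followed by GRMZM2G400718_T01 at 0.337 and GRMZM2G006352_T01 at 0.338. At the level limit, the lowest of the 4 values was 10.4 RPKM for GRMZM5G863420_T01 and 10.5 for GRMZM2G363116_T01 and GRMZM2G400173_T01. Just below it were GRMZM2G070881_T01 at 9.90 and GRMZM2G115701_T01 and GRMZM5G896560_T01 at 9.84.

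Little is recorded about these transcripts. Of the 60, 24 had an uncharacterized maize protein as best hit, 17 a hypothetical sorghum protein, 12 an unknown protein, 3 another hypothetical protein and 4 no hit. Gene Ontology (GO) text was attached to 33 of them. The GO component cytoplasmic vesicle was given for 14 of 60 (23.3%), compared with 8.25% of the 4050 unnamed models at 10 RPKM or more in all 4 nucellus and pollinated libraries. It was given for 7.64% of 1204 unnamed models high in nucellus alone and for 15.4% of 259 high in pollinated sac alone. The word precursor, used for proteins with a cleaved signal peptide, stood in 6 of 60 descriptions (10%), against 3.31%, 3.41% and 7.34% in those sets. The median model length was 1505 nt (150 to 4491), against 1768, 1683 and 1335 nt. A single listed model represented the gene for 57 of 60 (95%), against 83.9%, 74.8% and 91.1%. These shares describe annotation text and were not tested. A RefSeq gene table for assembly Zm-B73-REFERENCE-NAM-5.0 matched 39 of the 60 genes by identifier, all of them protein coding, and the best hits of 4 more led to a gene in it.

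Pollinated embryo sac and nucellus were then compared with edgeR's quasi-likelihood test, calling a model at an adjusted p under 0.05 and an absolute log2 change of at least 1. On TMM scaling, 15 of the 60 transcripts were higher in pollinated sac, 6 were lower and 39 were not called. Among all 18844 models tested, 27.3% were called higher and 27.9% lower. Among the 5771 tested models at 10 RPKM or more in the same 4 libraries, which resemble the chosen ones more closely in level, 28.4% were higher and 7.02% lower. The 25% and 10% of the 60 therefore lie near the shares of models of like level. The median log2 change was 0.44 for the 60, 0.40 for models of like level and -0.06 for all models.

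These counts depended on scaling. With libraries scaled to their total reads, 4 of the 60 were higher (17.3% of all tested models, 11.4% of those of like level) and 18 lower (48.7% and 31%), and the median moved to -0.47. The median of all models moved from -0.06 to -0.97, so changes on either scaling are relative to that shift. Under both scalings 4 transcripts were higher, GRMZM2G125923_T01, GRMZM2G060544_T01, GRMZM2G064655_T01 and AC155610.2_FGT007, and all 6 lower calls remained. RPKM, which is scaled to total reads, did not overlap between the tissues for 46 transcripts. Both pollinated libraries lay above both nucellus libraries for 12 of the 60 (24.6% of all tested models) and below them for 34 (65.5%), and 14 overlapped. Those counts, too, are near the 25.5% and 63.5% of models of like level. The mean pollinated level was 0.0278 to 4.67 times the mean nucellus level, with a median of 0.720.

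**Figure D2:**
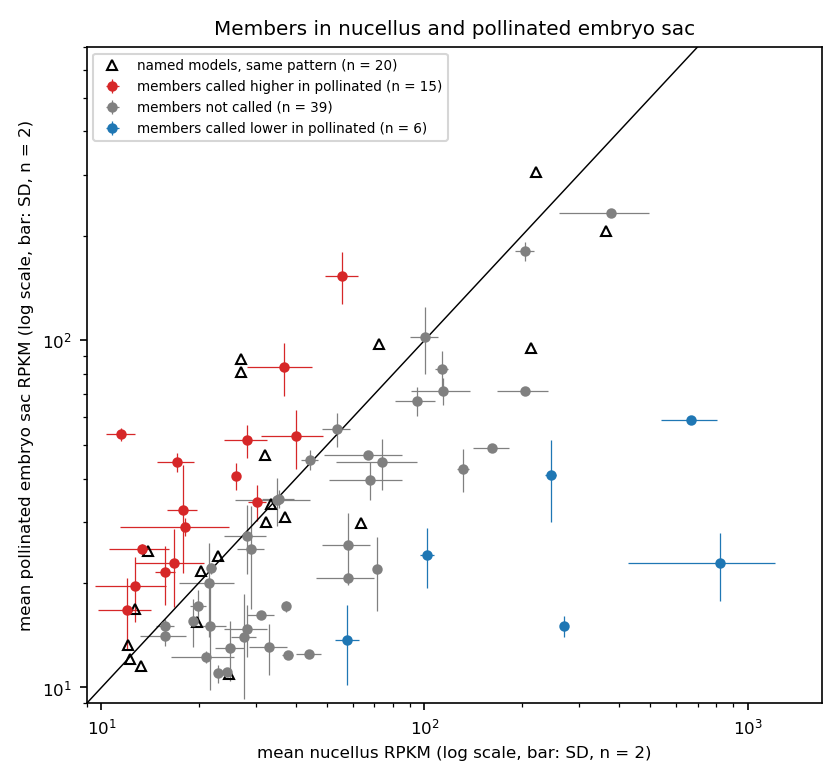
Mean RPKM of the 60 transcripts (filled circles, bars SD of 2 libraries) and of 20 named models with the same pattern (triangles) in nucellus and in pollinated embryo sac, on log axes with the line of equal level. The 15 transcripts called higher in pollinated sac lie above the line, the 6 called lower lie far to its right, and 41 of the 60 lie below it on this scale.

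**Figure D3:**
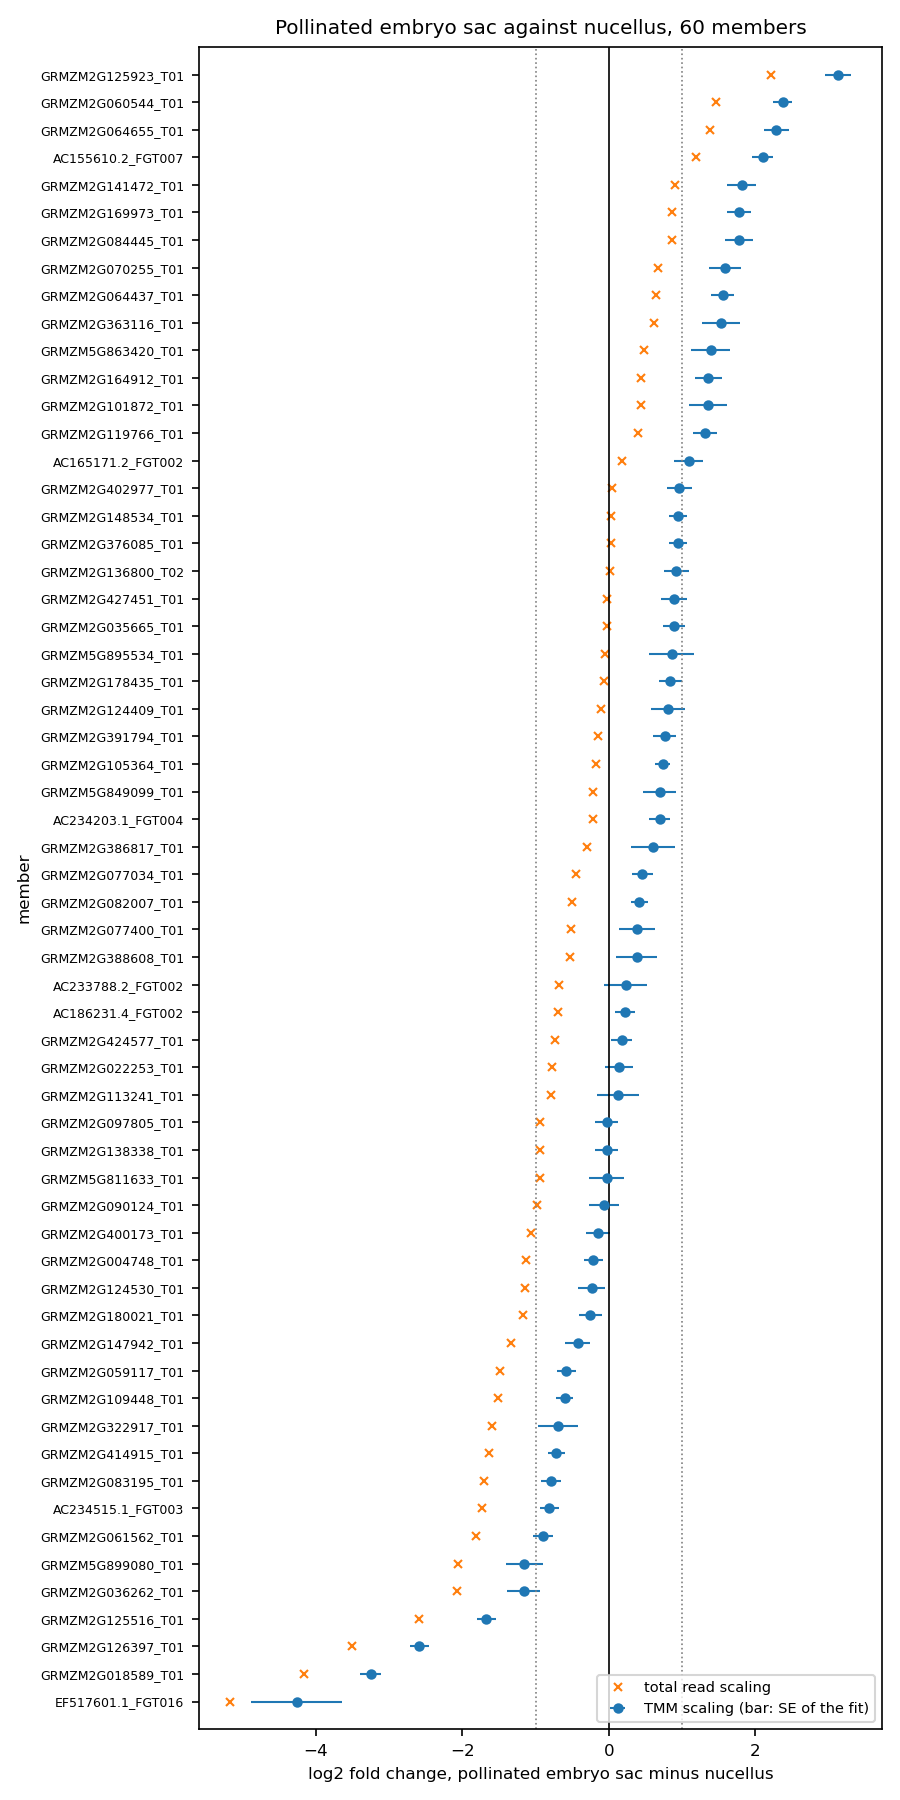
Log2 change between pollinated embryo sac and nucellus for each of the 60 transcripts on TMM scaling (circles, bars SE of the fit) and on total-read scaling (crosses), with dotted lines at a 2-fold change. On total-read scaling all transcripts move to the left, leaving 4 crosses past the right line and 18 past the left one.

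Transcripts grouped under transcription or nucleic acid binding had log2 changes of -3.25 to 2.37 on TMM scaling. Of 7, 4 were higher in pollinated sac, 1 was lower and 2 were not called, where 28.4% and 7.02% of models of like level were called. Their median log2 change was 1.09 on TMM scaling and 0.18 on total-read scaling. GRMZM2G060544_T01, whose gene is listed with the synonym LOB15, a name of the LATERAL ORGAN BOUNDARIES family of plant transcription factors, had 13.3 and 21.7 RPKM in unpollinated sacs, 51.1 and 60.3 in the nucellus libraries, and 135 and 172 in pollinated sacs. It carried no GO text and was placed in this group by the synonym alone. Each pollinated value exceeded each nucellus value by more than 2-fold, and this was the third most abundant of the 60 transcripts in pollinated sac. Its log2 change was 2.37 ± 0.13 (SE; edgeR adjusted p = 1.96e-31), and 1.46 on total-read scaling. GRMZM2G064655_T01, with GO text for nucleic acid and metal ion binding in gene regulation, had 42.5 and 46.6 RPKM in pollinated sacs, 15.5 and 18.7 in nucellus, and 4.19 and 6.08 in unpollinated sacs. The tissues were separate in every library, and the log2 change was 2.29 ± 0.17 (edgeR adjusted p = 4.62e-28). AC165171.2_FGT002, whose best hit belongs to WRKY120, a member of the WRKY family of DNA-binding factors known from plant defence, had 3.93 and 2.61 RPKM in unpollinated sacs, 31.8 and 28.98 in the nucellus libraries, and 31.4 and 37.2 in pollinated sacs. Nucellus and pollinated values overlapped on this scale. Its change of 1.09 ± 0.20 passed the limit on TMM scaling (edgeR adjusted p = 7.86e-07) and did not on total-read scaling (0.18) or without the pollinated library numbered 2 (0.98).

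The reverse pattern was seen for GRMZM2G018589_T01, with GO text for DNA binding and transcription and the gene synonym m25. It had 266 and 274 RPKM in nucellus against 14.3 and 15.8 in pollinated and 4.66 and 5.02 in unpollinated sacs. The mean nucellus level was 17.97 times the pollinated mean, with no overlap, and the log2 change was -3.25 ± 0.15 (edgeR adjusted p = 3.28e-49). GRMZM2G109448_T01, annotated to chromatin, had 178 and 231 RPKM in nucellus against 71.3 and 71.8 in pollinated and 21.7 and 19.1 in unpollinated sacs. The nucellus libraries were the highest in RPKM with no overlap, and its log2 change of -0.60 ± 0.12 was not called on TMM scaling but was on total-read scaling (-1.52). The remaining members of this group were GRMZM5G863420_T01, a DNA-binding annotation called higher at 1.39, and GRMZM2G178435_T01, a nucleic acid binding annotation at 0.84 and not called. The former changed by 0.48 on total-read scaling and was not called there.

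Of 5 transcripts annotated as transferases or other enzymes, 2 were higher, none was lower and 3 were not called. Models of like level were called higher in 28.4% and lower in 7.02% of cases, and 5 transcripts are too few to compare. GRMZM2G125923_T01 carries GO text for hydro-lyase activity in L-phenylalanine metabolism, and phenylalanine is the precursor of plant phenylpropanoids. It had 55.4 and 52.1 RPKM in pollinated sacs, 10.7 and 12.3 in nucellus, and 2.46 and 3.22 in unpollinated sacs, and its mean pollinated level was 4.67 times the nucellus mean without overlap. The log2 change, 3.13 ± 0.18 on TMM scaling and 2.22 on total-read scaling, was the highest of the 60 on both (edgeR adjusted p = 1.66e-38 on TMM scaling). AC155610.2_FGT007, annotated as an acyltransferase, had 73.2 and 93.9 RPKM in pollinated sacs, 30.7 and 42.5 in nucellus, and 5.62 and 4.43 in unpollinated sacs. Pollinated libraries were the highest, both nucellus libraries lay between them and the unpollinated ones, and the log2 change was 2.10 ± 0.15 (edgeR adjusted p = 1.16e-27).

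The 3 other enzyme annotations were closer between the tissues. GRMZM2G082007_T01, a methyltransferase annotation, had 85.2 and 104 RPKM in nucellus against 62.5 and 71.7 in pollinated and 19.6 and 15.4 in unpollinated sacs. Nucellus was higher in RPKM with no overlap, and the sign of its log2 change turned with scaling (0.42 ± 0.12 on TMM, -0.50 on total reads). GRMZM2G083195_T01, annotated as an acylglycerol O-acyltransferase of fatty acid synthesis, changed by -0.79 and was called lower only on total-read scaling (-1.70). GRMZM2G090124_T01, annotated as a UDP-glycosyltransferase, an enzyme kind that adds sugars to small molecules, changed by -0.06 and was called on neither scaling.

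Among 4 transcripts annotated for transport, 1 was higher, 1 was lower and 2 were not called. This is too few to set beside the 28.4% and 7.02% of models of like level. GRMZM2G126397_T01 is listed with the synonym LTP3, a name used for lipid-transfer proteins, small secreted proteins that bind lipids. It had 577 and 764 RPKM in nucellus against 59.3 and 59.02 in pollinated and 8.97 and 5.02 in unpollinated sacs. The mean nucellus level was 11.3 times the pollinated mean, the pollinated libraries were nearly equal, and the log2 change was -2.59 ± 0.13 (edgeR adjusted p = 1.75e-38). GRMZM2G064437_T01, annotated as a transmembrane transporter, had 38.05 and 43.2 RPKM in pollinated sacs, 26.3 and 25.8 in nucellus, and 1.35 and 2.27 in unpollinated sacs. Pollinated libraries were higher without overlap; the log2 change of 1.56 ± 0.15 was called on TMM scaling (edgeR adjusted p = 5.38e-18) and not on total-read scaling (0.64). Both transcripts annotated for transport driven by ATP hydrolysis, AC234203.1_FGT004 and GRMZM2G004748_T01, were not called on TMM scaling, at 0.69 and -0.21. The second was called lower on total-read scaling, at -1.12.

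None of the 4 protein kinase annotations was called on TMM scaling, with log2 changes of -0.58 to 0.76. Protein kinases pass signals on by adding phosphate to other proteins. GRMZM2G059117_T01 had 49.6 and 66.4 RPKM in nucellus against 21.2 and 20.1 in pollinated and 6.29 and 7.24 in unpollinated sacs, and its log2 change was -0.58 ± 0.13. Nucellus was higher in RPKM with no overlap, and it was the one kinase of the 4 called lower on total-read scaling (-1.49). GRMZM2G138338_T01 had the lowest unpollinated level of the 60, with 0.581 and 0.716 RPKM in unpollinated sacs, 23.2 and 26.9 in the nucellus libraries, and 11.2 and 14.8 in pollinated sacs. Its nucellus and pollinated values were separate in RPKM, while its log2 change on TMM scaling was -0.03 ± 0.16. The other two kinases, GRMZM2G097805_T01 and GRMZM2G391794_T01, changed by -0.03 and 0.76.

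Annotations for protein turnover and the cytoskeleton were not called on TMM scaling either. Both ligases of small protein modifiers, which tag proteins with ubiquitin or its relatives, lay at 0.95 (GRMZM2G376085_T01) and -0.03 (GRMZM5G811633_T01) and were called on neither scaling. Both endopeptidases were called lower only on total-read scaling. GRMZM2G414915_T01, the more abundant of them, had 128 and 136 RPKM in nucellus against 38.3 and 46.8 in pollinated and 8.29 and 7.20 in unpollinated sacs, with no overlap between tissues, and changed by -0.72 ± 0.12 on TMM scaling and by -1.63 on total reads. GRMZM2G147942_T01, whose GO text also names cell wall organization, changed by -0.43 and -1.34. AC234515.1_FGT003, annotated to microtubules and guanyl nucleotide binding, had 148 and 177 RPKM in nucellus against 48.1 and 50.03 in pollinated and 8.50 and 6.20 in unpollinated sacs. It was likewise highest in nucellus without overlap, and its log2 change was -0.81 ± 0.13 on TMM scaling, where it was not called, and -1.73 on total reads, where it was.

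A pair of transcripts linked to a gene name only by a best hit or a synonym were both lower in pollinated sac. Of models of like level 7.02% were called lower. The best hit of EF517601.1_FGT016, a model of 387 nt with a precursor description, belongs to a gene listed as MFS18, a name given to a maize male-flower-specific protein. It had 543 and 1103 RPKM in nucellus against 26.4 and 19.3 in pollinated and 1.59 and 3.42 in unpollinated sacs. It had the highest mean nucellus level of the 60. Its nucellus libraries differed from each other by 2.03-fold, and the lower of them was still above every embryo sac library by more than 10-fold. The log2 change of -4.26 ± 0.62 was the most negative of the 60 (edgeR adjusted p = 0.00456). Without the pollinated library numbered 1 or 2 its adjusted p from edgeR became 0.0741 or 0.0834, at log2 changes of -4.47 and -4.03. GRMZM5G899080_T01, without a database hit and with the gene synonym Pep1, had 54.2 and 61.1 RPKM in nucellus against 11.2 and 16.2 in pollinated and 2.91 and 2.69 in unpollinated sacs. Nucellus libraries were above the others without overlap, and the log2 change of -1.15 ± 0.25 (edgeR adjusted p = 2.17e-05) fell to -0.88, short of the limit, without the pollinated library numbered 1.

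**Figure D4:**
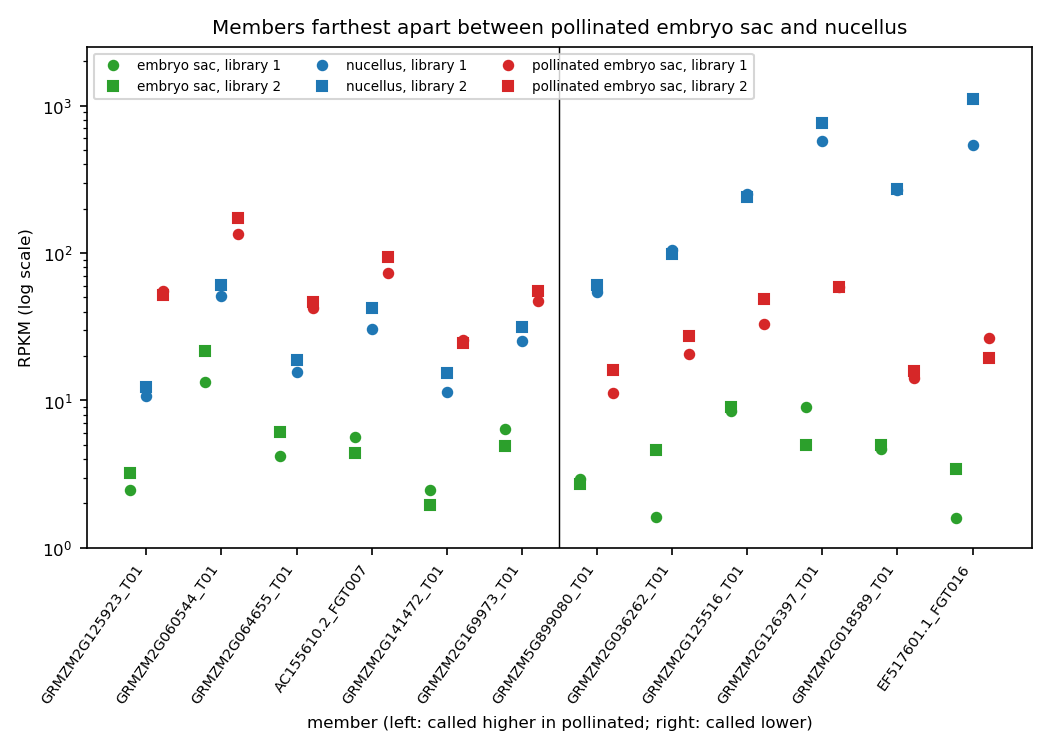
RPKM in each of the 6 libraries, on a log axis, of the 6 transcripts with the largest positive and the 6 with the largest negative called change whose nucellus and pollinated libraries did not overlap. On the right, nucellus libraries reach 543 and 1103 RPKM for EF517601.1_FGT016, while pollinated libraries lie at 19.3 to 26.4.

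For 9 transcripts the GO text gave only a compartment or a broad binding term. Of these, 2 were higher, 1 was lower and 6 were not called, where 28.4% and 7.02% of models of like level were called. Their median log2 change was 0.90 on TMM scaling and -0.02 on total reads. GRMZM2G125516_T01, a precursor annotated to cytoplasmic vesicles, had 253 and 239 RPKM in nucellus against 33.1 and 48.6 in pollinated and 8.49 and 8.99 in unpollinated sacs. The mean nucellus level was 6.02 times the pollinated mean without overlap, and the log2 change was -1.67 ± 0.12 (edgeR adjusted p = 6.94e-26). GRMZM2G148534_T01, annotated to membranes and vesicles, had 10.05 and 8.41 RPKM in unpollinated sacs, 93.2 and 107 in the nucellus libraries, and 86.6 and 118 in pollinated sacs. Nucellus and pollinated libraries overlapped in RPKM. Its log2 change of 0.95 ± 0.12 was just short of a call, which it passed without the nucellus library numbered 2 (1.06) or the pollinated library numbered 1 (1.19). GRMZM2G077034_T01, a vesicle-annotated precursor of 896 nt, had 109 and 117 RPKM in nucellus against 90.1 and 75.4 in pollinated and 26.4 and 21.8 in unpollinated sacs. Its pollinated libraries were lower in RPKM without overlap, and its log2 change was 0.46 ± 0.14 on TMM scaling and -0.45 on total reads. GRMZM2G101872_T01 and GRMZM2G119766_T01 were called higher on TMM scaling, at 1.35 and 1.32. Their RPKM overlapped between the tissues, and neither was called on total reads.

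The largest group had no GO text and no gene name: 24 transcripts, of which 6 were higher, 1 was lower and 17 were not called, with a median log2 change of 0.54 on TMM scaling and -0.37 on total reads. On TMM scaling 28.4% of models of like level were higher and 7.02% lower, so these counts lie near those shares. On total reads none of the 24 was called higher and 5 were called lower, against 11.4% and 31%. GRMZM2G141472_T01 had 25.6 and 24.5 RPKM in pollinated sacs, 11.4 and 15.4 in nucellus, and 2.46 and 1.94 in unpollinated sacs. GRMZM2G169973_T01 had 47.6 and 55.5 RPKM in pollinated sacs, 25.2 and 31.3 in nucellus, and 6.43 and 4.92 in unpollinated sacs. In both, each pollinated library was at least 1.5 times either nucellus library. Their log2 changes were 1.81 ± 0.20 and 1.78 ± 0.16 on TMM scaling (edgeR adjusted p = 1.54e-15 and 3.23e-20), and 0.90 and 0.87 on total reads, where neither was called. The other 4 higher calls of this group, GRMZM2G084445_T01, GRMZM2G070255_T01, GRMZM2G363116_T01 and GRMZM2G164912_T01, had log2 changes of 1.78, 1.59, 1.53 and 1.36 on TMM scaling. The single lower call was GRMZM2G036262_T01, with 106 and 98.2 RPKM in nucellus against 20.7 and 27.5 in pollinated and 1.61 and 4.64 in unpollinated sacs. Both nucellus libraries were far above the rest, and the log2 change of -1.16 ± 0.22 (edgeR adjusted p = 1.80e-06) was -0.94 without the pollinated library numbered 1, where the call was lost.

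The most abundant of the 60 in pollinated sac also belonged to this group. AC186231.4_FGT002, a precursor of 840 nt, had 233 and 234 RPKM in pollinated sacs, 294 and 459.6 in nucellus, and 21.2 and 27.97 in unpollinated sacs. The pollinated libraries were nearly equal, and both nucellus libraries lay above them and 1.56-fold apart. Its log2 change was 0.22 ± 0.13 on TMM scaling (edgeR adjusted p = 0.140), -0.69 on total reads, and -0.070 without the nucellus library numbered 1, so it had no direction that held across settings. GRMZM2G105364_T01 followed with 189 and 173 RPKM in pollinated sacs, 215 and 195 in nucellus, and 44.7 and 38.1 in unpollinated sacs. It had the highest unpollinated level of the 60, its nucellus libraries lay above the pollinated ones in RPKM, and its log2 change was 0.73 ± 0.11 on TMM scaling and -0.18 on total reads. AC233788.2_FGT002, the shortest model of the 60 at 150 nt, had 76.1 and 67.2 RPKM in pollinated sacs, 97.6 and 131 in nucellus, and 18.4 and 22.1 in unpollinated sacs. Its log2 change of 0.23 ± 0.29 on TMM scaling turned to -0.68 on total reads, and nucellus was again higher in RPKM without overlap.

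Taking the 39 uncalled transcripts as a whole, 23 had a positive and 16 a negative log2 change on TMM scaling, from -0.90 to 0.96. An adjusted p under 0.05 with a change below the fold limit was found for 23 of them. By adjusted p alone, 36% of all tested models were higher and 36% lower, and 52.2% and 22.8% of models of like level. For the other 16 uncalled transcripts the adjusted p was 0.05 or more, which does not show that the tissues were equal.

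Read coverage along the models was uneven. Median coverage of a model's length was 78.0% and 81.9% in nucellus, 73.5% and 76.0% in pollinated sac and 42.6% and 36.1% in unpollinated sac. At least 100 reads in a nucellus or pollinated library were available for 48 of the 60 transcripts, and 7 of these had under 65% of their length covered in all 4 libraries. The lowest were GRMZM2G136800_T02 with a highest coverage of 32.3%, GRMZM2G109448_T01 with 44.0%, despite 1239 reads in a nucellus library, and GRMZM2G083195_T01 with 45.2%. Because RPKM divides by the whole model length, the level of such a model is understated if only part of it is transcribed; whether that is so was not tested. Unique reads alone were counted, so models with near-identical copies elsewhere are uncertain, and strand was not recorded.

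The same limits of level took 20 models with an informative description. They made up 1.16% of the 1722 named models at 10 RPKM or more in the 4 libraries, and the 60 unnamed ones 1.48% of 4050. Of the 20, 8 were higher in pollinated sac than in nucellus, none was lower and 12 were not called, that is 40% and 0% against 28.4% and 7.02% of models of like level. On total reads 2 of the 20 were higher and 3 lower, against 11.4% and 31% of models of like level. Their median log2 change was 0.95 on TMM scaling and 0.04 on total reads. The highest were GRMZM2G011357_T01, described as indeterminate growth1, with 80.1 and 96.2 RPKM in pollinated sac and 22.2 and 31.9 in nucellus (log2 change 2.61 ± 0.14), and GRMZM2G158328_T01, a WRKY DNA-binding protein, with 73.8 and 88.1 and 26.4 and 27.7 RPKM (log2 change 2.49 ± 0.15). Both were called on either scaling. Cell wall descriptions accounted for 6 of the 20, among them AC234156.1_FGT005, a fasciclin-like arabinogalactan protein, a kind of cell-surface glycoprotein, with 291 and 319 RPKM in pollinated sac and 201 and 242 in nucellus. The alpha-expansin 15 model GRMZM2G105844_T01, of a family that loosens cell walls, had 206 and 208 and 357 and 374 RPKM and was not called (0.09 ± 0.11). Among all 63 tested models with a cell wall description, 42 were higher in pollinated sac and 4 lower (38 and 8 on total reads), where 27.3% and 27.9% of all tested models were called (17.3% and 48.7% on total reads). Among 207 tested models described as transcription factors, 81 were higher and 54 lower on TMM scaling, against 61 and 89 on total reads. For chromatin and cell cycle, 12 of 98 models were higher and 27 lower, against 3 and 62 on total reads. The 27 lower of 98 lie near the 27.9% of all tested models on TMM scaling. For RNA binding and processing, 7 of 95 were higher and 36 lower, against 3 and 62 on total reads. Further lists were searched and are not given here.

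The level reached in pollinated sac can also be set beside that of other nucellus transcripts chosen without it. Levels here are RPKM, scaled to total reads. TMM scaling was not applied to them. It would raise every pollinated level relative to nucellus, so the percentages and the models reaching a given share depend on scaling. A mean of at least 50 RPKM in nucellus and at most 1/10 of that in unpollinated sac was found for 75 models, 15 of them among the 60. The pollinated level was a median of 7.45% of the nucellus level over the 75, with a range of 0% to 104%. It was under 1% for 10 models and under 5% for 26. It was a median of 7.66% over all 56 unnamed models and of 4.21%, at most 17.5%, over the 19 named ones. Over the 15 it was 2.78% to 104%, but the rule had asked for at least 10 RPKM in both pollinated libraries and for 3 times the unpollinated mean, so their range is a description and is not comparable with that of the other models. On total-read scaling a level of at least 1/3 of that in nucellus was found for 6 of the 75. All 6 were among the 60, which the rule nearly ensures for unnamed models at such levels. None of the 19 named models reached 1/3 on this scale. Named models outside the limit of 1/10 did reach it. The alpha-expansin 15 model had means of 366 RPKM in nucellus, 207 in pollinated and 41.3 in unpollinated sac. Adenine phosphoribosyltransferase 2 (GRMZM2G071846_T01) had 214, 95.3 and 28.5 RPKM in the same order. GRMZM2G402977_T01 marked the upper end, with 49.8 and 57.3 RPKM in nucellus against 51.02 and 59.9 in pollinated and 7.04 and 2.31 in unpollinated sacs. Its nucellus and pollinated libraries overlapped in RPKM, and its log2 change of 0.96 ± 0.17 was not called. EF517601.1_FGT016, described above, marked the lower end.

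**Figure D5:**
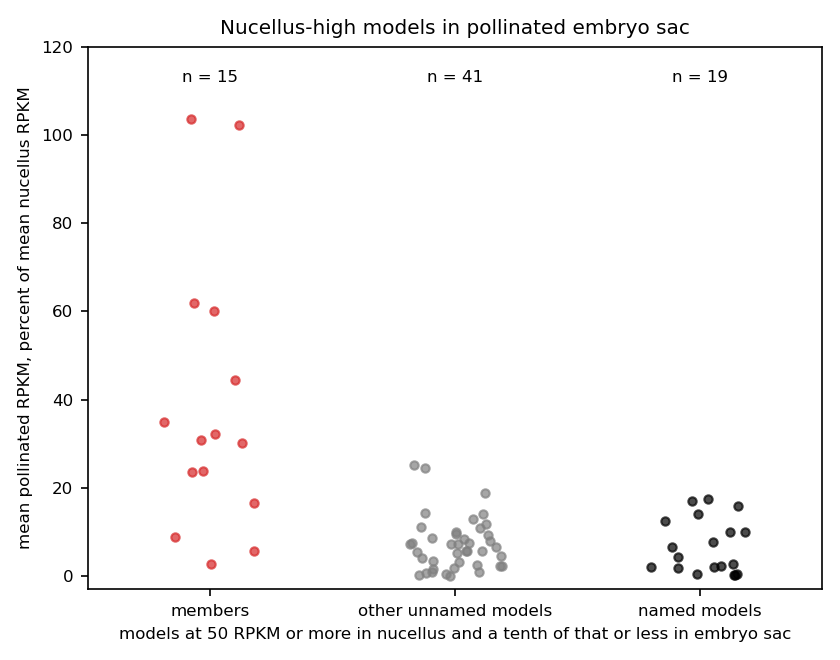
Mean RPKM in pollinated embryo sac as a percent of mean nucellus RPKM for 75 models high in nucellus and low in unpollinated sac, split into 15 of the 60 chosen transcripts, 41 other unnamed models and 19 named ones, with each point a model. The named models reach 17.5%, and the chosen transcripts, which the rule required to be present in pollinated sac, run from 2.78% to 104%. RPKM is scaled to total reads, and the percentages would be higher on TMM scaling.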

How the data were processed

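RNA-seq of 6 libraries (3 tissues, 2 libraries each, grouped by the tissue in the labels) was deposited as 1 table per library. Per the file headers, the deposited tables give unique read counts per transcript model, RPKM and coverage in percent of model length. RPKM recomputed from the deposited count, model length and total differed by at most 1.39e-08 in relative terms. Aligner, counter and genome build: not given in the sources used here. Models that a table does not list were set to 0 reads there. Descriptions and GO text are those of the deposited tables. GO function and process text each differed between tables for 7 of the 60 transcripts, and the first table was used. RefSeq symbols (assembly Zm-B73-REFERENCE-NAM-5.0) served for names only.

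Counts of all 6 libraries were fitted together in edgeR 4.0.16 (R 4.3.3; filterByExpr, 18844 models left, TMM, robust quasi-likelihood test, Benjamini-Hochberg adjustment over all models), without a replicate block. The fitting step was tested on simulated data. The simulation held no shift of the bulk of models between tissues, so it does not bear on the choice of scaling. Log2 changes are pollinated minus nucellus ± SE. Alternatives used DESeq2 1.42.0 (test and size factors), limma 3.58.1 on log2(RPKM + 1), total-read scaling, no filter, no fold limit, a replicate block, 2 tissues only, genes with 1 listed model and each library left out. P-values measure the spread between 2 libraries per tissue. Library totals set the counting precision, and PCR reads are not independent molecules.

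The members, gene lists and tests were chosen with earlier results of these data known, and the role groups were formed after reading the GO text. Transcripts named with full values are the 8 most abundant in pollinated sac, the 6 called highest and 6 called lowest without overlap, the 4 with the smallest change at 50 RPKM or more in both tissues, the most abundant of each functional list, and those at the limits of the rule. Others were named as members of a role group or for a value singled out after it was seen. The functional lists were searched in the GO text and synonyms, because the gene table used here holds no descriptions. Sequences, promoter motifs and protein identity were not analysed here.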

Additional observations from a re-analysis of the deposited data

How the results depend on the processing

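The counts of 15 higher and 6 lower transcripts were the same with DESeq2, with its size factors, without the low-count filter, with pollinated and nucellus libraries only and for genes with 1 listed model. Total-read scaling gave 4 and 18 (median log2 change -0.47; over all models 3264 higher and 9173 lower). Limma on log2(RPKM + 1) gave 4 and 17 (median -0.47) and 10609 models lower overall. Without a fold limit 30 and 14 were called. Leaving out each library gave 15 to 21 higher (21 without the nucellus library numbered 2 and without the pollinated library numbered 1), 4 to 6 lower (4 without the pollinated library numbered 1) and medians of 0.44 to 0.60, with 5157 to 5550 and 4965 to 5701 models over the table; where a tissue kept 1 library, it was assumed to vary like the others.

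The labels do not say that replicate numbers pair samples, and same-numbered libraries did not deviate together (correlations of -0.0325 to 0.0182). With a replicate block 15 were higher and 6 lower (median 0.44; 5108 and 5188 models), and no count moved by 1.5 times.

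The sign turned on total-read scaling and with limma for AC186231.4_FGT002 (-0.69 and -0.65), GRMZM2G105364_T01 (-0.18 and -0.18), GRMZM2G077034_T01 (-0.45 and -0.45), AC233788.2_FGT002 (-0.68 and -0.66) and GRMZM2G082007_T01 (-0.50 and -0.49). Leaving out each library, AC186231.4_FGT002 ranged from -0.070 (without the nucellus library numbered 1) to 0.59, and GRMZM5G811633_T01, near 0, from -0.18 to 0.15, above 0 without the unpollinated, nucellus or pollinated library numbered 2. Of the other values of named transcripts under alternatives, 288 kept their direction and side of the limit, 13 lost a call and 10 gained one.

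The number of transcripts under the rule was 95 and 29 at RPKM minimums of 5 and 20, and 172 and 23 with the unpollinated level at most 1/2 and 1/5. For named models these numbers, added after seeing the data, were 36, 12, 64 and 10. With RPKM on TMM-scaled library sizes the rule took 49 transcripts, 39 of them among the 60. With a nucellus minimum of 20 RPKM the median pollinated level of nucellus-high models was 6.66%. Unpollinated levels are the least precise, with counts down to 2 reads in a library. Of the other alternatives added after seeing the data, a search of descriptions in the given letter case kept 15 and 6, and leaving out transcripts whose nucellus libraries differ over 1.5-fold gave 14 and 5. The cause of the difference between scalings was not tested.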
